A study of Homo sapiens with 4 samples.

Results

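Smooth muscle actin and 9 further contractile genes were followed after knockdown of PURB in U2OS cells, an established human osteosarcoma line. The genes were taken by symbol from a literature-based list of targets of PUR proteins in muscle and fibroblasts, and all 10 were present among the 39519 genes of the expression table: ACTA2, TAGLN, CNN1, CNN2, TPM1, TPM2, MYL9, CALD1, MYLK and TNNT2. There were 2 sh-PURB libraries, from cells carrying an inducible short hairpin RNA against PURB and given doxycycline at 5 µg/ml for 72 h, and 2 sh-NC libraries, from cells with a control hairpin given DMSO. Total RNA was depleted of ribosomal RNA before sequencing, and the deposited values are TPM, a length-corrected share of all transcripts. Doxycycline was given to both sh-PURB libraries and to neither sh-NC library, so the hairpin and the drug cannot be told apart. The labels do not say whether the libraries came from separate cultures or whether 1 hairpin served for both sh-PURB libraries, so the spread behind each p-value is that between these libraries and may be technical. TPM keeps no read depth, and the depth behind each value is unknown. In these bulk samples, fewer cells that express a gene and less RNA per cell cannot be told apart.

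Smooth muscle contracts when myosin light chain kinase phosphorylates the regulatory light chain of myosin, which then pulls on filaments of actin and tropomyosin, while calponin and caldesmon bind actin and hold the interaction back. Cultured fibroblasts and many tumour cells carry some of the same proteins in their stress fibres. In rodent muscle cells and fibroblasts, PURB and its relative PURA bind the purine-rich strand of a regulatory element of the smooth muscle actin gene and repress it, and the Y-box protein YBX1 binds the opposite strand. That element holds an MCAT motif, the binding site of TEAD transcription factors, which also occurs in promoters of cardiac genes such as cardiac troponin T.

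Promoter windows reaching from 250 bases before to 50 bases after a start site (RefSeq, GRCh38.p14) were found for 8 of the 10 genes, in 13 windows. The MCAT core, CATTCC or GGAATG, was searched on both strands, as was the CArG box, the binding site of serum response factor. Only the strict CArG box was counted, 10 bases with only A or T between CC and GG, and looser forms were not. The 2 motifs do not overlap in these windows. An MCAT core was in 5 of the 13 windows (2 of CALD1 and 1 each of ACTA2, MYLK and TNNT2). A strict CArG box was in 2 (CNN2 and MYLK). Of all 35116 windows of the same length, 14.03% and 1.29% held them. Counted by gene, 4 of the 8 held an MCAT core and 2 a strict CArG box. Some genes have several windows, and those of TPM2 overlap, so the shares of windows are not a like comparison. The MYLK window (chr3:123620499-123620798, minus strand) lies inside the gene, which spans 123610049 to 123884331, near its 3′ end. Its matches therefore do not describe the start site at the 5′ end of MYLK. A match is only a match of letters. The windows of ACTA2, the gene on which PURB has been studied most, of TNNT2, whose level differed most, and of CNN1 are printed 5′ to 3′ on the strand of the gene, with the MCAT core in capitals. For ACTA2 the start site nearer to the coding region is shown (chr10:88952724-88953023, minus strand), where the core begins 183 bases before the start. That window also holds ccctatatgg and ccttgtttgg, each 1 base off the strict CArG box and so not counted. In TNNT2 (chr1:201377631-201377930, minus strand) the MCAT core begins 81 bases before the start. The CNN1 window (chr19:11538601-11538900, plus strand) holds no MCAT core and no strict CArG box, and its longest run of purines or pyrimidines is 15 bases, which 15.4% of windows exceed.
ACTA2: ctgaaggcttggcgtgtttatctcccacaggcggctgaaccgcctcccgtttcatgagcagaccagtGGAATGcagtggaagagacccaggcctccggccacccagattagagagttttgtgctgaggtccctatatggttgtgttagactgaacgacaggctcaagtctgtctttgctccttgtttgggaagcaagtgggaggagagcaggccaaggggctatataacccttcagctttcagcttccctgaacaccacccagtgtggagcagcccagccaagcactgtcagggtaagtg
TNNT2: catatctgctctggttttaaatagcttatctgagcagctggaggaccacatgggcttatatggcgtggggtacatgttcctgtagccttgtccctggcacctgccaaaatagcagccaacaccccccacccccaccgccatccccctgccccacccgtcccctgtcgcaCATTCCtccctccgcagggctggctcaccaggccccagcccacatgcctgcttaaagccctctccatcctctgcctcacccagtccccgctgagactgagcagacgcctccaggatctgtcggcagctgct
CNN1: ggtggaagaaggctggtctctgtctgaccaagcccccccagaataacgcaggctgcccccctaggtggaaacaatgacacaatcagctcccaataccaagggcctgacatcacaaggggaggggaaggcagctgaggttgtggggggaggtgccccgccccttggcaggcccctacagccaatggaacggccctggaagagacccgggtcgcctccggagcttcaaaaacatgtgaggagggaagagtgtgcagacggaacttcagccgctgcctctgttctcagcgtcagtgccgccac

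PURB itself had 2.46 and 2.69 TPM in sh-PURB cells, against 5.29 and 6.55 TPM in sh-NC cells, so 43.5% of the control mean remained. Its difference in log2(TPM + 1), the scale of every test here, was -0.95 with a standard error of 0.174 (limma adjusted p = 0.102). The exact permutation p, two-sided, was 0.333, which no design of 2 against 2 libraries can go below. Libraries had 13298 to 14207 genes at 1 TPM or more, and protein-coding genes took 25.5% to 27.2% of the total. Of the markers checked for the cell type, the osteoblast genes RUNX2, COL1A1 and SPARC were above 1 TPM in every library, and SP7, ALPL and BGLAP were below 0.3 TPM. Of the smooth muscle markers, MYH11, LMOD1 and MYOCD were below 0.7 TPM in every library. The remaining marker, DES, was higher, at 1.15 and 1.83 TPM in sh-PURB and at 1.19 and 0.361 TPM in sh-NC. Over markers of 6 cell types, 8 of 26 genes were tested and limma called 0 of them.

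None of the 10 contractile genes passed the test over all genes, and the largest difference was in TNNT2, the gene for cardiac troponin T. TNNT2 averaged 13.7 times the control level, or 24.7 times without sh-NC replicate 1 and 9.49 times without sh-NC replicate 2. These ratios divide by control values of only 0.267 and 0.102 TPM, so their size is uncertain. By comparison, TAGLN and CNN1, markers of early and late smooth muscle differentiation, averaged 1.60 and 1.69 times. ACTA2, the gene that PURB is known to repress in rodent cells, was at 0.794 of control with overlapping groups. With an adjusted p under 0.05 as the threshold, limma called 0.287% of the 14269 tested genes, 0.0841% as higher and 0.203% as lower, and 0 of the 10 contractile genes. At an unadjusted limma p under 0.05, 3 of the 10 were higher (TNNT2, TAGLN and CNN1), against 5.77% of all tested genes, and 0 were lower, against 9.53% (15.3% in either direction). TNNT2 reached the minimum of 1 TPM for testing only in the sh-PURB libraries and so had to differ. Among the other 9 genes, 2 were higher at that threshold. The groups did not overlap for 5 of the 10 genes, where 47.9% of all tested genes did not. Of these, 4 were higher in sh-PURB (TNNT2, TAGLN, CNN1 and CALD1), against 18.6% of all genes, and 1 was lower (CNN2), against 29.3%. Without TNNT2, 3 of 9 were higher and 1 was lower, so the groups were apart for 4 of 9. The median difference of the 10 genes was 0.14, beside a median of -0.06 over all tested genes. In a separate fit of the protein-coding genes, brought to the same sum in each library, 3.48% were called (1.33% higher) and TNNT2, with the limit given above, was the member called.

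**Figure D1:**
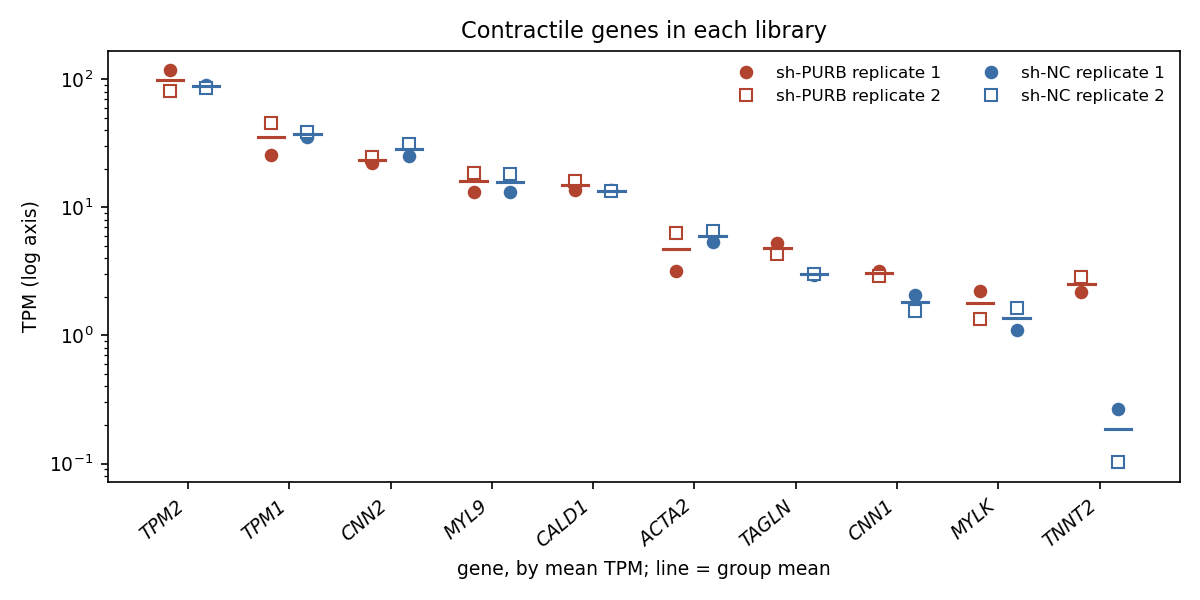
TPM of the 10 contractile genes in each library on a log axis, ordered by mean level, with sh-PURB libraries left of sh-NC libraries and a line at each group mean (2 libraries a group). The genes run from 93.3 TPM for TPM2 to 1.36 TPM for TNNT2 on average, and the groups stand farthest apart in TNNT2.

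The levels of the 10 genes spread widely, as the plot of TPM by library shows. TPM2 was highest, with a mean of 93.3 TPM over the 4 libraries, above 97.1% of tested genes, and its lowest library exceeded every library of the next gene, TPM1. CNN2 followed, and TPM1 and CNN2 overlapped over all libraries. MYL9 and CALD1 overlapped each other in both groups and stood below every library of CNN2. ACTA2, TAGLN, CNN1, MYLK and TNNT2 had means between 1.36 and 5.35 TPM, and each overlapped the next in this order over all libraries. The classical smooth muscle markers ACTA2, TAGLN and CNN1 were thus below the more broadly expressed tropomyosin, calponin 2, light chain and caldesmon genes in every library.

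ACTA2 (chromosome 10, 88935074 to 88991339, minus strand, GRCh38, GENCODE) encodes the smooth muscle isoform of actin. It had 3.19 and 6.27 TPM in sh-PURB, against 5.40 and 6.52 TPM in sh-NC. The first sh-PURB library was below both controls and the second lay between them, so the groups overlapped. The difference was -0.33 with a 95% interval of -1.10 to 0.44 (limma adjusted p = 0.666). Without sh-PURB replicate 1 it became 0.0680, so the direction rested on that library. The sh-PURB libraries differed 1.97-fold in ACTA2, and only 6.25% of tested genes were farther apart between them on the log2 scale. Exons of ACTA2 share 380 bases with FAS and 516 bases with ACTA2-AS1 on the opposite strand, and the sources used here give no strand setting, so reads of overlapping genes cannot be told apart. FAS was at 10.0 and 10.9 TPM in sh-PURB and at 6.76 and 8.27 TPM in sh-NC. ACTA2-AS1 stayed below 0.85 TPM in every library. The part of either in the ACTA2 values was not tested.

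The other actins set the scale. ACTB and ACTG1, the cytoplasmic beta and gamma actins, were at 705 and 766 TPM and at 264 and 361 TPM in sh-PURB, against 645 and 734 TPM and 224 and 308 TPM in sh-NC. Both overlapped between groups. ACTA2 made up 0.328% and 0.553% of the TPM of the 6 actin genes in the sh-PURB libraries and 0.617% and 0.622% in the sh-NC libraries, so its share was lower in both knockdown libraries and far from equal between them. ACTA1 of skeletal muscle, ACTC1 of heart and ACTG2 of visceral smooth muscle were below 0.4 TPM in every library. The coding sequences of actins are similar, and the share of reads that could be assigned to more than 1 of them is unknown.

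TAGLN (chromosome 11, 117199321 to 117204782, plus strand) encodes transgelin, or SM22-alpha, an actin-binding protein of smooth muscle and stress fibres. It was at 5.29 and 4.35 TPM in sh-PURB and at 2.97 and 3.04 TPM in sh-NC, and the groups did not overlap. The difference was 0.54 with a 95% interval of 0.10 to 0.97 (limma adjusted p = 0.246), which misses the threshold. PCSK7, a proprotein convertase gene on the opposite strand that shares 446 exonic bases with TAGLN, was at 3.74 and 2.92 TPM in sh-PURB and at 2.91 and 2.97 TPM in sh-NC. PCSK7 overlapped between groups, and both genes were highest in sh-PURB replicate 1. The part of PCSK7 in the TAGLN values was not tested.

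The calponins stabilise actin filaments and slow myosin. CNN1 (chromosome 19, 11538717 to 11550323, plus strand), the smooth muscle form, was at 3.21 and 2.92 TPM in sh-PURB and at 2.07 and 1.55 TPM in sh-NC. CNN2, the form of many nonmuscle cells, was at 22.2 and 24.7 TPM in sh-PURB and at 25.2 and 31.3 TPM in sh-NC. The groups were apart in both genes, CNN1 higher and CNN2 lower, by log2 differences of 0.54 (SE 0.193, limma adjusted p = 0.297) and -0.25 (SE 0.149, adjusted p = 0.489). The acidic calponin CNN3, at 66.2 to 79.2 TPM, overlapped between groups and was the main form. CNN1 accounted for 3.50% and 2.93% of the calponin TPM in sh-PURB and for 1.94% and 1.48% in sh-NC, and both knockdown libraries were above both controls. CALD1, which encodes caldesmon, a protein that blocks myosin from actin, was at 13.7 and 16.1 TPM in sh-PURB and at 13.6 and 13.4 TPM in sh-NC. Exons of CNN2 share 338 bases with the opposite-strand gene AC011558.1. In CALD1 the first sh-PURB library was almost level with the controls, and the CALD1 difference was 0.13 (95% interval -0.22 to 0.48, limma adjusted p = 0.709).

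Tropomyosins lie along the actin filament and decide which proteins can reach it. TPM1 was at 25.4 and 45.3 TPM in sh-PURB and at 35.2 and 38.9 TPM in sh-NC. TPM2 was at 117 and 80.4 TPM in sh-PURB and at 89.8 and 85.9 TPM in sh-NC. In each gene 1 sh-PURB library was above and the other below both controls, and they did so in opposite senses: the first sh-PURB library was low in TPM1 and high in TPM2. The spread between sh-PURB libraries, 1.78-fold in TPM1 and 1.46-fold in TPM2, exceeded the spread between sh-NC libraries, 1.11-fold and 1.04-fold. The group differences were -0.12 (95% interval -0.84 to 0.60) and 0.14 (95% interval -0.35 to 0.64), with limma adjusted p-values of 0.884 and 0.783, and both change sign without sh-PURB replicate 1, to 0.29 and -0.13. TPM2 took 42.0% and 34.3% of the TPM of the 4 tropomyosin genes in sh-PURB and 34.9% and 33.9% in sh-NC. TPM4, which encodes a tropomyosin of nonmuscle cells, was lower in both sh-PURB libraries (26.1 and 26.6 TPM) than in both controls (31.4 and 33.5 TPM), without passing (limma adjusted p = 0.304). TPM3 overlapped between groups, at 81.8 to 110.0 TPM in sh-PURB and at 95.04 to 101 TPM in sh-NC. TPM1-AS, which overlaps TPM1 on the opposite strand, was at most at 0.0212 TPM.

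**Figure D2:**
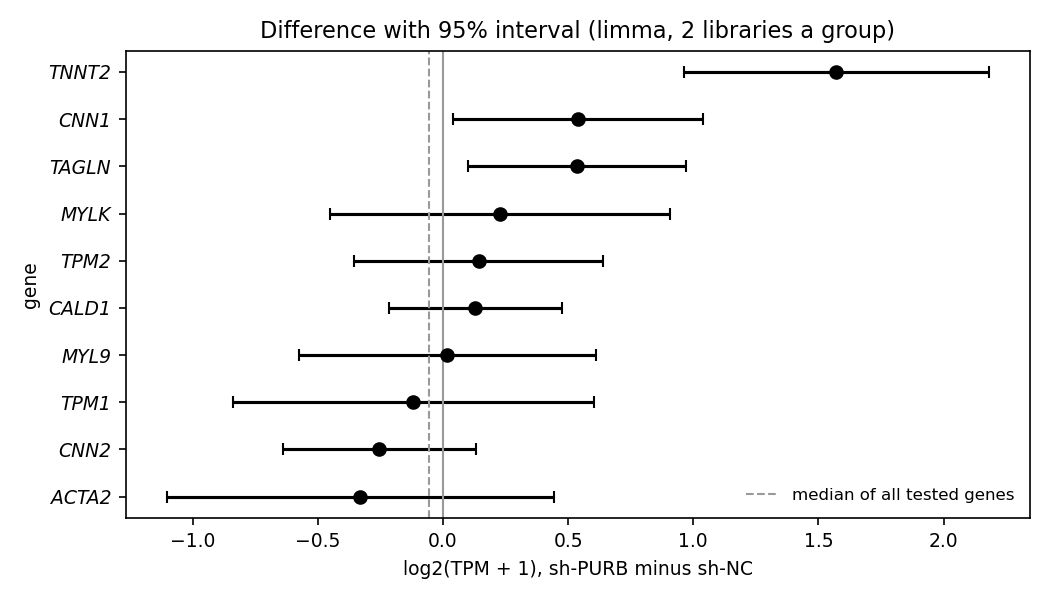
Difference in log2(TPM + 1) between sh-PURB and sh-NC for the 10 contractile genes, with 95% intervals from limma (2 libraries a group) and a dashed line at the median of all tested genes. The intervals of TNNT2, CNN1 and TAGLN lie above 0 and those of the other 7 genes include it.

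In the plot of differences with their intervals, MYL9 lies closest to 0. MYL9 encodes a regulatory light chain of myosin in smooth muscle and stress fibres, and MYLK encodes the kinase that phosphorylates it. MYL9 was at 13.2 and 18.5 TPM in sh-PURB and at 13.2 and 18.2 TPM in sh-NC, so the libraries of the same number were nearly equal and the groups overlapped. Its difference was 0.02 (95% interval -0.58 to 0.61, limma adjusted p = 0.983). MYLK was at 2.23 and 1.34 TPM in sh-PURB and at 1.10 and 1.63 TPM in sh-NC, with a difference of 0.23 (95% interval -0.45 to 0.91, adjusted p = 0.740 in limma). Without sh-PURB replicate 1 the MYLK difference was -0.0045. Antisense transcripts overlap MYLK, and MYLK-AS1 was at 2.14 and 1.73 TPM in sh-PURB and at 2.09 and 1.72 TPM in sh-NC, a level like that of MYLK.

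The close relatives of MYL9 were far more abundant. MYL12A and MYL12B, whose products serve nonmuscle myosin, were at 225 and 224 TPM and at 349 and 292 TPM in sh-PURB, against 178 and 175 TPM and 265 and 253 TPM in sh-NC. Both sh-PURB libraries were above both controls in each gene (limma adjusted p = 0.154 and 0.324). MYL12B was named here for its likeness to MYL9, after its values were seen. The 3 genes are similar in sequence, and the share of reads that could be assigned to either is unknown. Genes for nonmuscle myosin and its control numbered 20 among those tested, and limma called 0 of them. At an unadjusted limma p under 0.05, 2 stood higher and 3 lower, where 5.77% and 9.53% of all tested genes did. Their median difference was -0.13, but 0.0246 with TPM recomputed without abundant and mitochondrial genes and -0.24 without sh-PURB replicate 2. CALM3, 1 of the genes for calmodulin, which activates MYLK, was at 36.8 and 38.5 TPM in sh-PURB and at 57.2 and 60.7 TPM in sh-NC. CALM3 was called lower among protein-coding genes alone (limma adjusted p = 0.0354) and not over all genes (adjusted p = 0.0842). MYH10, the heavy chain of nonmuscle myosin IIB, was at 0.641 of control (adjusted p = 0.271 in limma).

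TNNT2 (chromosome 1, 201359008 to 201377762, minus strand) encodes cardiac troponin T, which ties the calcium-sensing troponin complex to tropomyosin in heart muscle. It was at 2.18 and 2.88 TPM in sh-PURB and at 0.267 and 0.102 TPM in sh-NC. Every sh-PURB value was well above every control value, although all 4 were low. The difference was 1.57 with a 95% interval of 0.96 to 2.18 (limma adjusted p = 0.0823), the size of change ranking 235th of 14269 tested genes. Among protein-coding genes alone TNNT2 was called higher (difference 1.59, limma adjusted p = 0.00883). It reached the minimum of 1 TPM for testing only in the sh-PURB libraries and so had to differ, which limits this call and the rank. The log2 difference depends on the added constant at so low a level, from 1.57 with 1 TPM added to 3.26 with 0.1 TPM added.

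LAD1, the next protein-coding gene on the same strand, shares 81 exonic bases with TNNT2. It was at 0.505 and 0.502 TPM in sh-PURB and at 0.0359 and 0.0114 TPM in sh-NC, below the minimum for testing. The neighbours PKP1 and TNNI1 stayed below 0.3 TPM in every library, and TNNI1, the troponin I of slow muscle, was at 0.028 and 0.0792 TPM in sh-PURB and at 0.271 and 0.0843 TPM in sh-NC. LAD1 thus moved with TNNT2 at a lower level, and its part in the TNNT2 values was not tested.

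Of the other 7 troponin genes, 2 were tested. TNNC1, the calcium-binding troponin C of heart and slow muscle, was at 11.5 and 26.3 TPM in sh-PURB and at 2.95 and 3.13 TPM in sh-NC, 6.22 times control. Its difference of 2.19 (95% interval 1.20 to 3.18) was called among protein-coding genes (limma adjusted p = 0.0125) and not over all genes (adjusted p = 0.0965). TNNT1, the troponin T of slow skeletal muscle, was at 65.5 and 96.8 TPM in sh-PURB and at 101 and 91.1 TPM in sh-NC, with overlapping groups, and its difference of -0.26 turns to 0.0146 without sh-PURB replicate 1. TNNT1 was thus the main troponin T in every library, and TNNT2 made up 3.22% and 2.88% of troponin T TPM in sh-PURB and 0.263% and 0.112% in sh-NC. The other 5, TNNT3, TNNI1, TNNI2, TNNI3 and TNNC2, did not reach the minimum in 2 libraries. Neither did any of 20 genes for the sarcomere of heart and skeletal muscle, which summed to 3.76 and 3.84 TPM in sh-PURB and to 2.998 and 3.81 TPM in sh-NC.

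**Figure D3:**
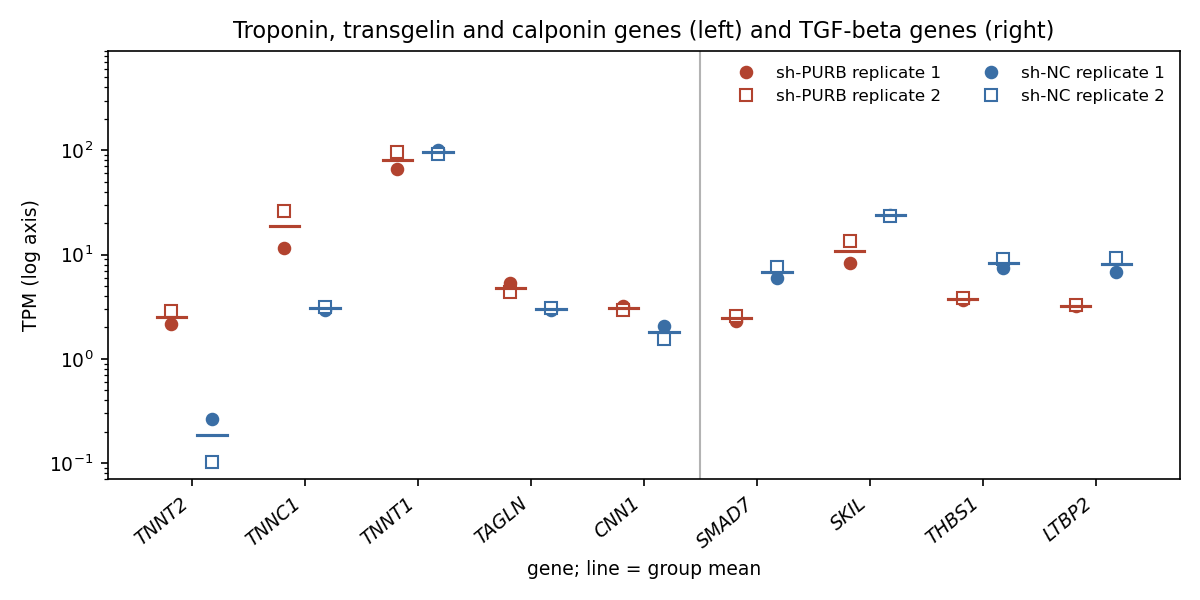
TPM in each library on a log axis for troponin genes, TAGLN and CNN1 (left of the divider) and for 4 genes of the TGF-beta pathway (right), with sh-PURB left of sh-NC and a line at each group mean (2 libraries a group). TNNT2 and TNNC1 are higher in both sh-PURB libraries, TNNT1 overlaps, and the 4 TGF-beta genes are lower in both sh-PURB libraries.

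The 3 tested genes whose profile over the 4 libraries was nearest to that of TNNT2, by root-mean-square distance of log2(TPM + 1) about each gene's mean and among genes averaging at least 5 TPM, were NTM (distance 0.126), COL12A1 (0.149) and ADAMTS6 (0.152). NTM, a cell adhesion protein of neurons, was at 18.6 and 24.4 TPM in sh-PURB and at 5.84 and 6.49 TPM in sh-NC. COL12A1, a collagen chain that sits on other collagen fibrils, was at 19.1 and 19.6 TPM in sh-PURB and at 7.70 and 5.12 TPM in sh-NC. ADAMTS6, a secreted metalloproteinase, was at 6.69 and 9.28 TPM in sh-PURB and at 2.89 and 2.44 TPM in sh-NC. The distance was taken over 4 libraries of which 2 are high, so many genes with a like difference lie close.

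Of 18 other genes of the smooth muscle differentiation programme 10 were tested, limma called 0 in either direction, and only CSRP2, which was lower, had an unadjusted p under 0.05. Their median difference was -0.40, and 8 of the 10 lay below 0, beside a median of -0.06 and 58.4% below 0 over all tested genes. The list was chosen with earlier results of these data known, so that comparison is no test. CSRP2, a LIM protein of smooth muscle, was at 10.2 and 13.3 TPM in sh-PURB and at 16.5 and 16.9 TPM in sh-NC (limma adjusted p = 0.269). PDLIM5 and TGFB1I1, which act at stress fibres and adhesions, were at 0.738 and 0.634 of control, with the groups apart and a limma adjusted p of 0.350 for each. DES, the muscle intermediate filament desmin, was at 1.15 and 1.83 TPM in sh-PURB and at 1.19 and 0.361 TPM in sh-NC, with overlapping groups. CSRP1, a relative of CSRP2 named after its values were seen, was at 1.14 times control with the groups apart (limma adjusted p = 0.594). The median of the list was -0.0722 without sh-NC replicate 2, -0.15 with TPM recomputed without abundant and mitochondrial genes and -0.16 with no filter.

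Genes that crosslink actin or anchor it at focal adhesions went both ways. Of 20 tested, limma called 0, and the median difference was 0.0758. At an unadjusted limma p under 0.05, 2 stood higher and 1 lower, where 5.77% and 9.53% of all tested genes did. The median was larger in other scalings, at 0.13 for the fit of protein-coding genes, 0.15 for median-ratio rescaling and 0.23 for recomputed TPM. LIMA1, which bundles actin, was at 1.47 times control, and PFN1, the actin monomer binder profilin, at 1.27 times (limma adjusted p = 0.235 and 0.354). GSN, which severs actin filaments, was at 20.3 and 29.1 TPM in sh-PURB and at 37.8 and 38.5 TPM in sh-NC (limma adjusted p = 0.231).

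**Figure D4:**
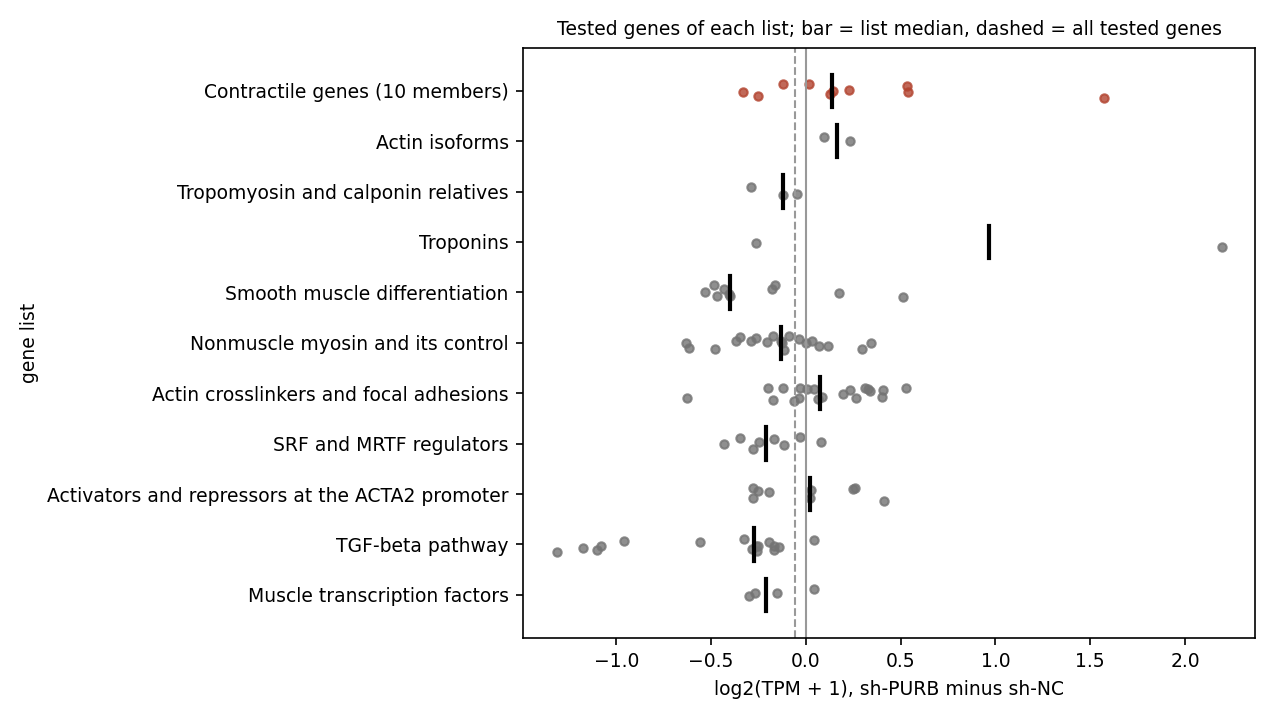
Difference in log2(TPM + 1), sh-PURB minus sh-NC, of each tested gene in the contractile set and in 10 lists of related genes, with a bar at each list's median and a dashed line at the median of all tested genes (-0.06). TNNC1 and TNNT2 stand to the right of the other genes, and 5 genes of the TGF-beta list stand to the left, between -1.31 and -0.96.

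Of 10 factors known at the ACTA2 promoter 9 were tested, and none was called. The plot of gene lists gives the 9 a median difference of 0.0222, whose sign turns under several other settings. For 0 of them was the unadjusted limma p under 0.05, and 0 were called. PURA was at 1.67 and 2.03 TPM in sh-PURB and at 0.865 and 1.46 TPM in sh-NC, and YBX1 at 453 and 398 TPM against 377 and 334 TPM, each with both sh-PURB libraries above both controls (limma adjusted p = 0.485 and 0.362). TEAD1, which binds the MCAT motif marked in the ACTA2 and TNNT2 windows, was at 19.1 and 20.9 TPM in sh-PURB and at 21.0 and 28.6 TPM in sh-NC (limma adjusted p = 0.525). Its relatives TEAD2 and TEAD4, looked up after values were seen, were at 7.62 and 9.84 TPM and at 15.1 and 10.95 TPM in sh-PURB, against 14.9 and 12.7 TPM and 9.37 and 8.96 TPM in sh-NC. TEAD2 was thus lower and TEAD4 higher in both sh-PURB libraries, with limma adjusted p-values of 0.213 and 0.346. SP3, a GC-box factor, was at 14.97 and 15.95 TPM in sh-PURB and at 18.9 TPM in both sh-NC libraries (adjusted p = 0.348 in limma). SRF, the factor that binds CArG boxes, was at 3.93 and 3.47 TPM in sh-PURB and at 3.59 and 3.30 TPM in sh-NC, with overlapping groups. The ternary complex factors ELK1, ELK3 and ELK4, partners of SRF, were at 0.808, 0.709 and 0.732 of control with the groups apart, and limma gave them adjusted p-values of 0.351 to 0.404. Among 8 tested regulators of SRF and its MRTF cofactors, 0 were called and 0 had an unadjusted limma p under 0.05. Of 10 muscle transcription factors 4 were tested and 0 called, with MEF2A at 0.825 of control, and MYOD1, MYOG, MYF5 and MYF6 were below 0.15 TPM.

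Genes of TGF-beta signalling, the pathway that raises ACTA2, TAGLN and CNN1 in fibroblasts, were mostly lower. Of 16 tested, 15 had a difference below 0, where 58.4% of all tested genes did, with a median of -0.27. Both sh-PURB libraries were below both controls for 10 of the 16, where 29.3% of all genes were so. Over all genes limma called 0, and with an unadjusted p under 0.05 as the threshold 6 stood lower and 0 higher, against 9.53% and 5.77% of all genes. Among protein-coding genes alone, 4 fell and 0 rose, against 2.15% and 1.33% of those genes. This list, like the other lists and the contractile genes, was chosen with earlier results of these data known. Its counts beside those of all genes are therefore no test. SMAD7, an inhibitor that the pathway itself induces, was at 2.33 and 2.55 TPM in sh-PURB and at 5.997 and 7.63 TPM in sh-NC (limma adjusted p = 0.0155 among protein-coding genes). SKIL, another inhibitor that the pathway induces, was at 8.21 and 13.5 TPM in sh-PURB and at 24.2 and 23.4 TPM in sh-NC (adjusted p = 0.0403 in the same limma fit). THBS1, which activates latent TGF-beta, was at 0.453 of control, and LTBP2, a protein related to those that bind latent TGF-beta, at 0.403 (limma adjusted p = 0.0264 and 0.0243 among protein-coding genes). The median of the list was -0.55 without sh-NC replicate 1, -0.20 without sh-NC replicate 2, -0.20 after median-ratio rescaling and -0.16 with recomputed TPM. TAGLN and CNN1 were higher in the same sh-PURB libraries in which SMAD7, SKIL, THBS1 and LTBP2 were lower. Whether these differences are linked was not tested.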

How the data were processed

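Samples were grouped by their titles. The authors deposited TPM for each gene symbol. Per the submitters' processing notes, the tools were bcl2fastq 2.19, kallisto 0.44.0, sleuth and DESeq2, and GRCh38 and GRCm38 are listed as builds; what each was used for is not given. The table of all libraries was used, and its values equal those of the tables of single libraries. A row with a blank name (0.921% to 1.66% of each library) was left out. Genes with at least 1 TPM in at least 2 libraries (14269) were compared as log2(TPM + 1) in limma 3.58.1 under R 4.3.3, with a mean trend in the moderation, and p-values were adjusted by Benjamini-Hochberg over every tested gene (threshold 0.05). That scale understates the differences of low genes. Residual degrees of freedom were 2 and prior ones 2.92, and intervals are moderated 95% intervals. Ratios are of mean TPM. For protein-coding genes alone, columns were rescaled to their mean sum. Positions and gene types came from GENCODE release 29. Promoters came from RefSeq. The members, lists and alternatives were chosen with earlier results of these data known. The genes and PURB were named whatever their values, and in each list up to 4 genes with the smallest limma p; family members, SRF and DES were named for what they are. Some genes that this rule would name are not reported here. The fit was tested on simulated data. Alternatives were other pseudocounts, filters, scalings and limma settings, a replicate block and leaving out each library.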

Additional observations from a re-analysis of the deposited data

How the results depend on the processing

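All counts of called genes come from limma, and 0 of the 10 contractile genes were called in any of 14 alternatives other than TPM recomputed without abundant and mitochondrial genes and protein-coding genes alone, each of which called 1, TNNT2 (adjusted p = 0.0462 and 0.00883). Over all genes, 41 calls became 0 with a pseudocount of 0.1 (TNNT2 difference 3.26), with no filter, and without trend, 121 with at least 5 TPM, 78 after median-ratio rescaling (29 higher, 49 lower), 176 with recomputed TPM (99 higher, 77 lower), 415 among protein-coding genes and 125 with robust moderation. Recomputed TPM also raises each value against the filter and pseudocount, and the median of all genes was then 0.06, against -0.06. In the main fit TNNT2 reached the minimum of 1 TPM only in the sh-PURB libraries, which limits its calls above. Leaving out each library gave 0 to 0 calls with 1 residual degree of freedom, the lone library being assumed to vary like the other group. PURB passed among protein-coding genes (-0.91, limma adjusted p = 0.0313). The median of the contractile genes was -0.0507 with at least 5 TPM (6 genes left), 0.29 with recomputed TPM, 0.21 under median-ratio rescaling and 0.10 to 0.24 with a library left out. The same-numbered libraries share only a number; with the replicate block 118 genes (41 higher, 77 lower) and 0 contractile genes were called, and deviations of same-numbered libraries correlated at 0.19 across 14269 genes.

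Signs turned for small differences. Leaving out a library gave -0.73 to 0.0680 for ACTA2, -0.21 to 0.24 for MYL9 (reversed at -0.20 and -0.21 without sh-NC replicate 1 and sh-PURB replicate 2), -0.0045 to 0.46 for MYLK, -0.54 to 0.0146 for TNNT1, -0.52 to 0.29 for TPM1, -0.13 to 0.41 for TPM2 and -0.26 to 0.16 for TPM3. Recomputed TPM gave 0.0305 for TPM1, 0.0302 for CNN3 and 0.11 for TPM3, and TPM3 was at 0.0334 after median-ratio rescaling and at 0.0040 among protein-coding genes; the cause was not tested. TAGLN and CNN1 kept their direction wherever they were tested. TNNT2 did so too, but it reached the minimum of 1 TPM only in the sh-PURB libraries and so had to differ. Depth is unknown, so what it limits cannot be stated.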
